A study of Mus musculus with 8 samples.

Results

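The transcripts of the NF-kappaB subunits and of a group of genes that regulate them were examined in mouse peripheral blood after acute stress. The rows of the count table whose symbol was one of 10 named genes were taken, and all 10 were present among the 21878 symbols of the table. They were the 5 subunits Nfkb1, Nfkb2, Rel, Rela and Relb and the 5 regulators Nfkbia, Nfkbiz, Bcl3, Tnfaip3 and Birc3, which are themselves known targets of the pathway and are called feedback inhibitors here. The rule was the gene's name and had no threshold on a measured value. The samples came from wild-type female mice of the C57BL/6 strain, 6 to 8 weeks old. Mice of the stress group (n = 4) were restrained in a ventilated tube for 6 hours, and mice of the control group (n = 4) stayed in their cage unrestrained. Neither group had access to food or water during that time, so that fasting was shared by both. RNA was taken from frozen whole blood, which holds red cells and platelets beside leukocytes.

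NF-kappaB is a family of dimeric transcription factors that switch on inflammatory, survival and lymphocyte genes. In resting cells the dimers are held in the cytoplasm by inhibitor proteins of the IkappaB family. Signals from Toll-like receptors, the interleukin-1 receptor or the TNF receptor activate a kinase complex that marks IkappaB for destruction, and the freed dimers then enter the nucleus. The activity of the pathway is therefore set largely by protein turnover and location, which RNA levels do not measure. Among the genes induced are Nfkbia and Tnfaip3, whose products shut the pathway down again, and some of the subunits themselves.

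The sequences below are shown because such feedback can run through NF-kappaB binding letters near the start of a gene, but need not. RefSeq promoter windows (250 bases before to 50 bases after an annotated start site, build GRCm38.p6) were at hand for 7 of the 10 genes, and Nfkb1, Relb and Nfkbiz had no entry. The 10-letter kappaB consensus was searched on both strands. It was found in at least 1 window of 5 of these 7 genes (Nfkb2, Rel, Nfkbia, Bcl3 and Tnfaip3), whereas 5.14% of all 27025 symbols with a window and 4.51% of all 32851 windows held it. The windows of Rela and Birc3 held no match. The regulators were chosen as known targets of the pathway, so this count is not a test of a link. A narrower pattern, GGG and TTTCC with any 2 bases between them, shares matches with the consensus. It was found in 4 of the 7 genes (not in Bcl3) and in 1.89% of all symbols. Each line gives 1 match with 10 bases on either side, read 5′ to 3′ on the strand of the gene, with the letters of the match in capitals. The lines are a selection, and further matches of Nfkb2, Rel and Tnfaip3 are not printed.
Nfkbia, chr12:55492657-55492686, minus strand, 29 to 20 bases before the start: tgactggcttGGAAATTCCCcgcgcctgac
Nfkb2, chr19:46304688-46304717, plus strand, 39 to 30 bases before the start: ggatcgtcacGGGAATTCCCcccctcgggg
Nfkb2, chr19:46305695-46305724, plus strand, 225 to 216 bases before another start: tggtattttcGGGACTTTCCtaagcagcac
Rel, chr11:23771042-23771071, minus strand, 92 to 83 bases before the start: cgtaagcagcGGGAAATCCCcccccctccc
Tnfaip3, chr10:19015403-19015432, minus strand, 12 to 3 bases before the start: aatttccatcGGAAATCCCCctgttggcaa
Bcl3, chr7:19822734-19822763, minus strand, bases 3 to 12 of the transcript: tcggcggcagGGGAAGTCCCgctgcccggc
The printed matches of Nfkbia, Tnfaip3 and Bcl3 lay on the strand opposite to the gene, and those of Nfkb2 at the first position and of Rel matched on both. A further match of Tnfaip3, not printed, lay on the strand of the gene. These letters describe the windows and do not show that a factor was bound in these samples.

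Control samples held 31471145 to 39014775 counts and stress samples 25978683 to 29655725, of which the haemoglobin genes took 51.9% to 63.8% and 61.2% to 75.5%. Levels are given as CPM (counts divided by library size) on the TMM scale, which takes most genes as unchanged, and a log2 fold change is stress minus control. Over the 11718 tested genes its median was -0.03 on this scale and -0.82 when libraries were scaled by total counts alone. The leukocyte gene Ptprc (CD45) was at 448 ± 16.8 CPM in control and 392 ± 43.0 CPM in stress samples (SD, n = 4 each). Its groups overlapped, with a log2 fold change of -0.19 (adjusted p = 0.417, edgeR). In whole blood, fewer cells of a type and less RNA per cell cannot be told apart.

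No member passed the test. With edgeR's quasi-likelihood test, 0 of the 10 genes were higher and 0 were lower at an adjusted p below 0.05, while 14.1% of all tested genes were called (10.4% higher and 3.69% lower). All 10 had passed the filter on low counts, with 66 to 4403 counts per sample. At an unadjusted p under 0.05, 0 members were higher and 2 were lower (Rel and Birc3), and 31.1% of all tested genes reached that level. DESeq2 and limma-voom also called 0 of the 10. The thresholds of the study (an adjusted p below 0.01 and more than a 2-fold change) called 0 as well. They were applied here to the edgeR fit, whereas the study used DESeq2, and 1.71% of all tested genes passed them. On total counts alone 7 members were lower, where 49.6% of all tested genes were lower too. The log2 fold change was above 0 in 3 members (Rela, Relb and Bcl3) and below 0 in 7 on the TMM scale, whereas on total counts alone it was below 0 in all 10. The median of the members was -0.06 beside -0.03 for all tested genes, and on total counts -0.87 beside -0.82. The median size of the change was 0.12 in the members and 0.25 in all tested genes, and the median standard error was 0.12 and 0.17.

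On the TMM scale the spread between samples was small enough to bound most of these changes. The 95% interval of the log2 fold change on this scale lay within a 2-fold change in either direction for 9 of the 10 members, and for 73.6% of all tested genes. Rel was the exception, with an interval from -1.04 to -0.08. On total counts alone the log2 fold changes of Rel (-1.28) and Birc3 (-1.03), and of no other member, were themselves beyond 2-fold. These are point values without intervals. The standard errors of the members were 0.33 to 0.35 on that scale, beside 0.1 to 0.22 on the TMM scale. The bounds found on the TMM scale therefore do not carry over to total counts. Leaving out 1 sample in turn brought 1 call in 8 fits, that of Birc3 without stress replicate 4 (log2 fold change -0.33, adjusted p = 0.0471, edgeR).

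**Figure D1:**
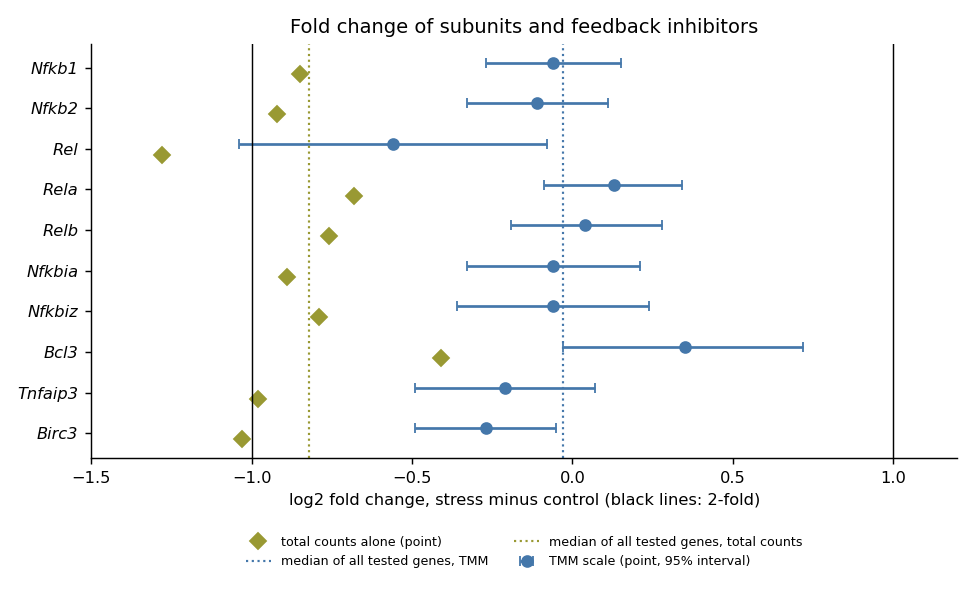
Log2 fold change of each gene, stress minus control, with circles and 95% intervals for the TMM scale, diamonds for total counts alone, dotted lines at the median of all tested genes on each scale and black lines at a 2-fold change. The TMM intervals lie inside the black lines for 9 of the 10 genes, and the diamonds, drawn without intervals, sit around the total-count median of -0.82.

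Rela and Nfkb1 encode the p65 and p50 proteins of the classical dimer. Rela (chr19:5637483-5648130, plus strand, GRCm38) was at 27.5, 28.9, 30.9 and 27.8 CPM in control replicates 1 to 4 and at 33.9, 27.9, 33.1 and 30.7 CPM in stress replicates 1 to 4. The groups overlapped, with 2 stress samples above every control sample. The log2 fold change was 0.13 (95% interval -0.09 to 0.34, adjusted p = 0.423, edgeR). Nfkb1 (chr3:135584655-135691547, minus strand), whose precursor protein also acts as an inhibitor, was at 55.9, 63.0, 63.6 and 59.8 CPM in the control samples and at 58.9, 59.0, 55.1 and 59.7 CPM in the stress samples. All stress samples but replicate 3 lay inside the control range, and the SD was 5.85% of the control mean and 3.59% of the stress mean. For Nfkb1 it was -0.06 (95% interval -0.27 to 0.15, adjusted p = 0.727, edgeR).

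Relb and Nfkb2 form the dimer of the alternative pathway, which is driven by lymphoid TNF family receptors. Relb (chr7:19606217-19629438, minus strand) was at 11.3, 11.8, 13.3 and 10.6 CPM in the control samples and at 11.2, 12.7, 11.7 and 12.9 CPM in the stress samples. The stress samples all lay within the control range, and the log2 fold change was 0.04 (95% interval -0.19 to 0.28, adjusted p = 0.824, edgeR). Nfkb2 (chr19:46304320-46312385, plus strand), which encodes the p100 precursor of p52, was at 30.5, 38.4, 36.7 and 35.8 CPM in the control samples and at 33.3, 32.5, 33.8 and 31.5 CPM in the stress samples. Control replicate 1 was the lowest of the 8 samples, and the other control samples lay above all stress samples. This gave a log2 fold change of -0.11 (95% interval -0.33 to 0.11, adjusted p = 0.488, edgeR). Exons of Psd on the opposite strand cover 6.52% of the exon length of Nfkb2. Those of AC114539.1, also on the opposite strand and without a row in the table, cover 11.58%. Since strand use in counting is not given in the sources used here, reads there could belong to Nfkb2 or to these genes. Psd itself had 78 to 396 counts per sample.

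Rel (chr11:23736847-23770970, minus strand) encodes c-Rel, the subunit best known from lymphocytes. It had the lowest fold change of the members. It was at 15.8, 17.3, 13.5 and 14.4 CPM in the control samples and at 13.5, 10, 5.01 and 12.2 CPM in the stress samples. The lowest control and the highest stress sample had the same rounded value, and stress replicate 3, with 66 counts, lay far below the others. The mean was 15.3 ± 1.69 CPM in control and 10.2 ± 3.72 CPM in stress samples (SD, n = 4 each), which gave a log2 fold change of -0.56 (SE 0.22, adjusted p = 0.109, edgeR) and -1.28 on total counts alone. Without stress replicate 3 the log2 fold change was -0.34 (adjusted p = 0.092, edgeR), the smallest fall over the 8 fits that left out 1 sample. The largest was -0.69, without stress replicate 1 (adjusted p = 0.0653, edgeR). DESeq2 gave an adjusted p of 0.0835 for Rel, and edgeR with a replicate block gave 0.0548. Stress replicate 3 had the largest haemoglobin share, at 75.5%, and the fewest counts outside the haemoglobin genes, at 6352711.

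Markers of B cells were lower beside these values of Rel. Of 10 B cell markers, 6 were lower and 0 higher at an adjusted p below 0.05 with edgeR, and their summed level was 1061 to 1308 CPM in the control samples and 722 to 950 CPM in the stress samples, without overlap. Cr2 fell by 0.79 and Fcer2a by 0.72 on the log2 scale. Of 10 T cell markers 0 were called in either direction, and their summed level was 537 to 580 CPM in the control samples and 476 to 601 CPM in the stress samples. The part of these cells in the level of Rel was not tested.

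**Figure D2:**
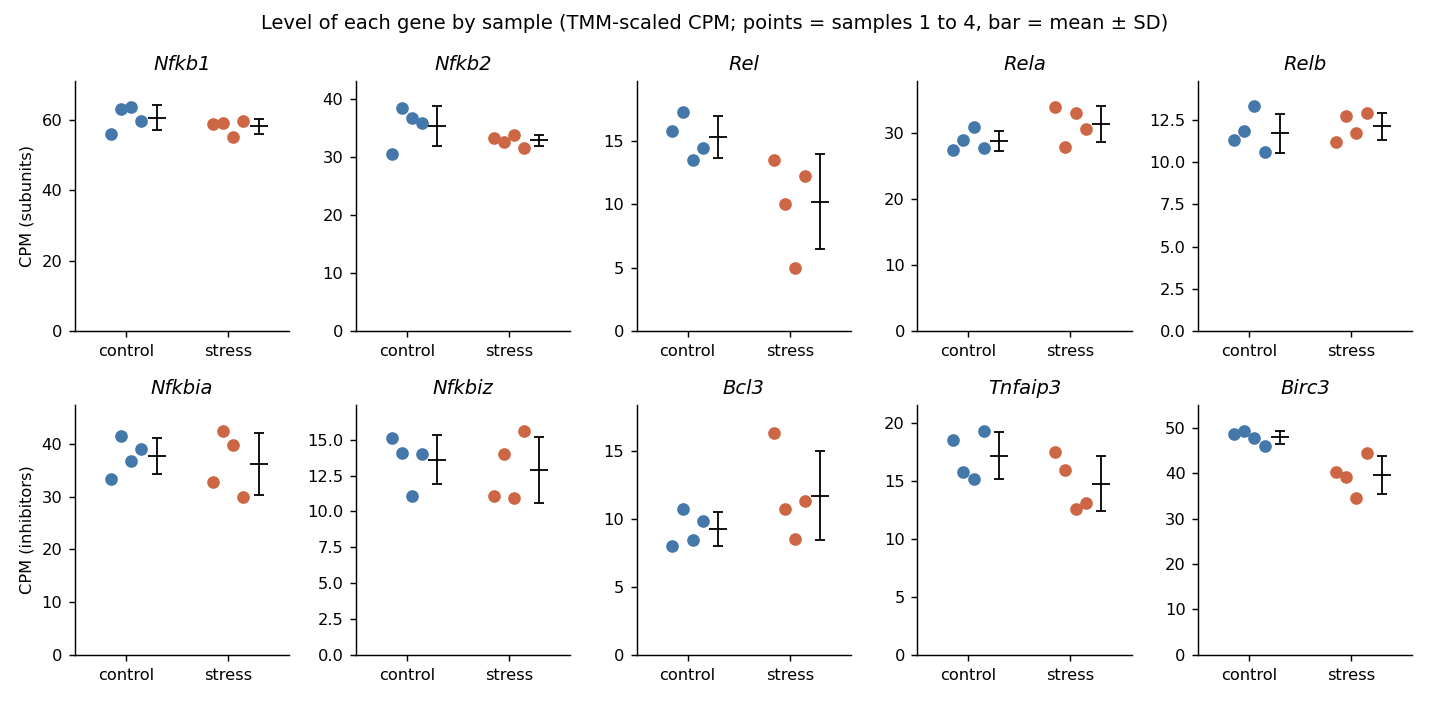
Level of each gene in every sample in CPM on the TMM scale, with subunits in the upper row and feedback inhibitors in the lower row, 1 point per sample and black bars for mean and SD (n = 4 per group). In Birc3 every stress sample lies below every control sample on this scale, but not on total counts alone, and in the other 9 genes the groups overlap.

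Nfkbia (chr12:55489410-55492647, minus strand) encodes IkappaB alpha, the inhibitor that is destroyed on activation and rapidly made anew. It was at 33.4, 41.5, 36.7 and 39.1 CPM in the control samples and at 32.7, 42.5, 39.8 and 30 CPM in the stress samples. The highest and the lowest of the 8 samples were both stress samples. The log2 fold change was -0.06 (95% interval -0.33 to 0.21, adjusted p = 0.796, edgeR), and its sign turned in 2 of the 8 fits that left out 1 sample. Tnfaip3 (chr10:19000910-19015657, minus strand) encodes A20, an enzyme that edits ubiquitin chains on signalling proteins. It was at 18.6, 15.8, 15.2 and 19.3 CPM in the control samples and at 17.5, 16, 12.6 and 13.1 CPM in the stress samples. Stress replicates 3 and 4 lay below the control range and the other two within it, and the log2 fold change was -0.21 (95% interval -0.49 to 0.07, adjusted p = 0.287, edgeR).

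Nfkbiz and Bcl3 encode nuclear members of the IkappaB family, which can activate or repress genes with the p50 and p52 proteins and are not plain inhibitors. Nfkbiz (chr16:55811375-55838899, minus strand) was at 15.1, 14.1, 11.1 and 14.0 CPM in the control samples and at 11.1, 14.0, 10.9 and 15.6 CPM in the stress samples. Both groups covered nearly the same range, and the log2 fold change was -0.06 (95% interval -0.36 to 0.24, adjusted p = 0.802, edgeR). Bcl3 (chr7:19808462-19822770, minus strand) was at 8.04, 10.7, 8.44 and 9.87 CPM in the control samples and at 16.3, 10.7, 8.50 and 11.3 CPM in the stress samples. Stress replicate 1 was the highest by a wide margin, and stress replicate 3 lay among the lowest control samples. This gave a log2 fold change of 0.35 (95% interval -0.03 to 0.72, adjusted p = 0.19, edgeR) and 0.17 without stress replicate 1. An antisense gene, Gm16175, covers 6.51% of the exon length of Bcl3 and had no row in the table.

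Birc3 (chr9:7848699-7873186, minus strand) encodes cIAP2, a ubiquitin ligase that supports survival signalling from the TNF receptor and helps to keep the alternative pathway off. It was at 48.6, 49.2, 47.8 and 46.0 CPM in the control samples and at 40.2, 39.2, 34.5 and 44.5 CPM in the stress samples. Every stress sample lay below every control sample. This was the case for 1 of the 10 members, and the groups did not overlap in 21.0% of all tested genes (stress below in 9.88%). On total counts alone the groups of Birc3 overlapped, whereas those of 4 other members did not (Nfkb2, Rel, Nfkbia and Tnfaip3, all with stress below), as for 23.5% of all tested genes with stress below. The mean was 47.9 ± 1.41 CPM and 39.6 ± 4.09 CPM (SD, n = 4 each), and the log2 fold change was -0.27 (SE 0.10, adjusted p = 0.0918, edgeR) and -1.03 on total counts alone. DESeq2 gave an adjusted p of 0.0524 for it. The related gene Birc2, which encodes cIAP1 and lies 11635 bases away on chromosome 9, rose from 46.3 ± 6.02 to 70 ± 8.60 CPM (SD, n = 4 each, log2 fold change 0.60, adjusted p = 0.00769, edgeR), and on total counts alone its log2 fold change was -0.20. The count of Birc3 over that of Birc2, a ratio that needs no scaling and was looked at after the values were seen, was 0.994, 1.26, 1.08 and 0.866 in the control samples and 0.586, 0.618, 0.419 and 0.680 in the stress samples. Reads of these paralogs could be split between them, and how the counting treated reads with several matches is not given in the sources used here.

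The ratio of each member to Rela within a sample does not depend on how libraries are scaled. Of the 9 ratios, 2 did not overlap between the groups (Rel and Birc3, both lower in the stress group), while the ratio to Rela did not overlap in 21.5% of the other tested genes (stress below in 15.4%). Of the 9, 0 passed an adjusted p of 0.05 (two-sided exact permutation test over 70 assignments, smallest possible p = 0.0286). Rel had 53.2% ± 7.31 of the counts of Rela in control and 32.6% ± 11.8 in stress samples (SD, n = 4 each). The highest stress sample was at 39.7% and the lowest control sample at 43.5% (exact permutation test, p = 0.0286, adjusted 0.129). Birc3 had 167% ± 9.41 of the counts of Rela in control and 127% ± 19.1 in stress samples (SD, n = 4 each, exact permutation test, p = 0.0286, adjusted 0.129). For Nfkbia the ratio was 131% ± 12.8 and 117% ± 26.2, and the groups overlapped (SD, n = 4 each, exact permutation test, p = 0.371). Over the ratios that overlapped, the p of the exact permutation test ran from 0.0571 (Nfkb2, 123% and 105%) to 0.543 (Relb, 40.7% and 38.9%).

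**Figure D3:**
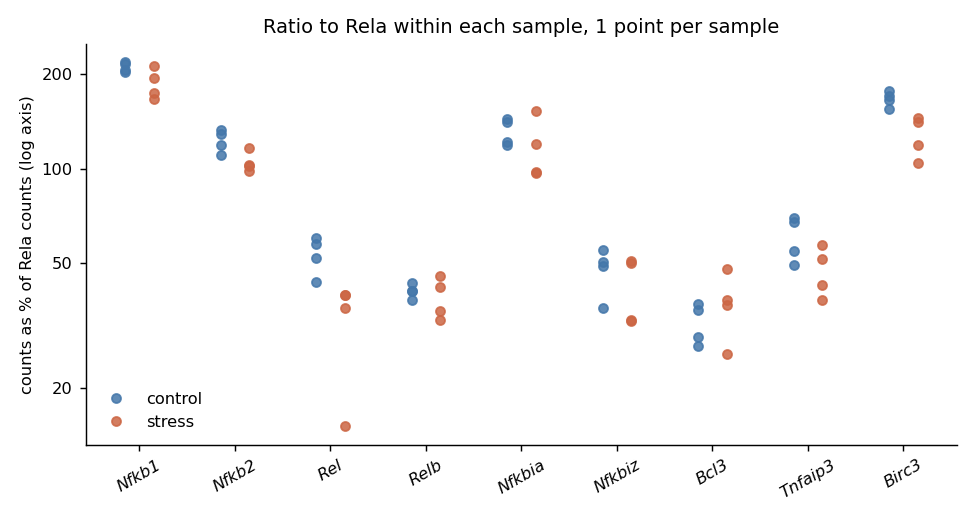
Counts of each gene as a percentage of the counts of Rela in the same sample, on a log axis, with 1 point per sample (4 control, 4 stress). The groups are apart for Rel and Birc3 and overlap for the other 7 genes.

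With Ptprc as the reference, other members were separated. Of the 10 ratios to Ptprc, 2 did not overlap and both were higher in the stress group (Rela and Bcl3), while 17.8% of the other tested genes did not overlap (stress above in 14.9%). Of the 10, 0 passed an adjusted p of 0.05 (same test). Both counts of separated ratios were near these shares of all genes and set the members apart in neither case. Rela had 6.42% ± 0.288 of the counts of Ptprc in control and 8.10% ± 1.35 in stress samples (SD, n = 4 each), and Bcl3 had 2.07% ± 0.311 and 3.0% ± 0.905 (both p = 0.0286 in the exact permutation test, adjusted 0.143). Rel was at 3.40% ± 0.366 and 2.57% ± 0.888 of Ptprc, and Birc3 at 10.7% ± 0.215 and 10.1% ± 0.422, both with overlapping groups (SD, n = 4 each).

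Levels were compared between the members per kilobase of exon. Nfkbia was the most abundant, at 23.0 ± 2.81 CPM per kilobase over the 8 samples (SD), which was 13.5 times the level of Rel, the least abundant, at 1.70 ± 0.511. Rela (9.80 ± 0.809) and Birc3 (8.74 ± 1.05) followed Nfkbia, but Rela was above Birc3 in only 5 of the 8 samples. Nfkb2 was next at 7.43 ± 0.588 and was above Nfkb1 (4.92 ± 0.247) in 8 of 8 samples. Bcl3 was at 4.23 ± 1.07, Relb at 3.07 ± 0.243, Nfkbiz at 2.64 ± 0.379 and Tnfaip3 at 2.22 ± 0.334, and these neighbours kept their order in 6 to 7 of the 8 samples. The place of Nfkb1 depended on its exon length, which was 12061 bases over all annotated transcripts and 4124 over the basic set. With the shorter length Nfkb1 was at 14.4 ± 0.722, next to Nfkbia.

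**Figure D4:**
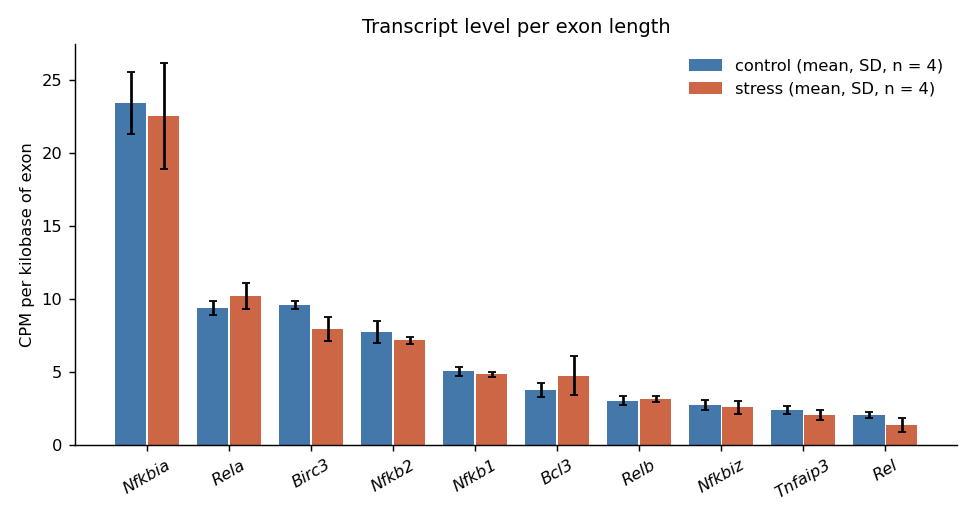
CPM per kilobase of exon (all annotated transcripts) of each gene, as bars for the mean of the control and stress groups with SD (n = 4 each), ordered by the mean over the 8 samples. Nfkbia stands above the rest in both groups and Rel is lowest in both.

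The genes upstream of the subunits were examined as a list of 35 kinases, adaptors and ubiquitin ligases, all of which were tested. Of them, 4 were higher, 2 were lower and 29 did not pass (edgeR, adjusted p below 0.05). These counts were near the 10.4% higher and 3.69% lower of all tested genes, so that the list did not stand apart from them by its counts. The median over the list was -0.10. Myd88, the adaptor of Toll-like and interleukin-1 receptors, rose from 15.7 ± 1.13 to 22.8 ± 1.74 CPM (SD, n = 4 each, log2 fold change 0.53, adjusted p = 0.00468). Card9, the adaptor of C-type lectin receptors in myeloid cells, rose by a log2 fold change of 0.87, and its partner Bcl10 by 0.44. Birc2 was the other gene that rose. The groups of these 4 genes did not overlap, which is no further support because the test had picked them. Over the list, 10 of 35 genes did not overlap in either direction, beside 21.0% of all tested genes. On total counts alone Card9 kept a log2 fold change above 0 (0.15), and those of Myd88 (-0.23), Bcl10 (-0.35) and Birc2 were below 0 but above the -0.82 of all tested genes. Prkcb, a protein kinase C that carries the signal of the antigen receptor in B cells, fell by 0.50 on the log2 scale (adjusted p = 0.036, edgeR). It lost the call without control replicate 1, 2 or 3 or stress replicate 2 (adjusted p up to 0.106, edgeR), and with a replicate block its adjusted p was 0.0607 (edgeR). The 3 parts of the IkappaB kinase complex, named after their values were seen, were at log2 fold changes of 0.04 (Chuk), -0.22 (Ikbkb) and -0.04 (Ikbkg) and did not pass.

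Inhibitors outside the members formed another list. Of 21 listed, 20 were tested, 1 was higher, 1 was lower and 18 did not pass, beside 14.1% called among all tested genes. Their median log2 fold change was 0.07, and Tnip3 had at most 13 counts in any sample. Otulin, which removes linear ubiquitin chains, rose from 14.9 ± 0.831 to 20.3 ± 2.18 CPM (SD, n = 4 each, log2 fold change 0.44, adjusted p = 0.017, edgeR), and its log2 fold change was -0.38 on total counts alone. It lost the call without control replicate 2 (adjusted p = 0.0707) or 3 (adjusted p = 0.06, edgeR). Nlrc3, a negative regulator of Toll-like receptor signalling, fell from 26.3 ± 0.760 to 18.9 ± 1.87 CPM (log2 fold change -0.48, adjusted p = 0.00831, edgeR).

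Target genes of NF-kappaB were the last list. Of 46 listed, 34 were tested, 13 were higher and 0 lower at an adjusted p below 0.05 (edgeR), and 21 did not pass, beside 10.4% higher and 3.69% lower among all tested genes. The median log2 fold change was 0.41 beside -0.03 for all tested genes. On total counts alone it was -0.41 beside -0.82, and 0 targets were called higher and 10 lower. The difference between the targets and the members was not tested. Tlr2, a receptor for bacterial lipoproteins, rose from 3.03 ± 0.564 to 7.43 ± 1.21 CPM (SD, n = 4 each, log2 fold change 1.29, adjusted p = 0.00106). Nlrp3, the sensor of an inflammasome, rose by a log2 fold change of 1.40 and Il1rn, the interleukin-1 receptor antagonist, by 1.26. Junb rose by 0.72 and Ninj1 by 0.91. Il1b, named after its values were seen, rose from 18.6 ± 7.05 to 42.6 ± 11.3 CPM (SD, n = 4 each, log2 fold change 1.2, adjusted p = 0.0151, edgeR). Over the 13 genes the log2 fold change ran from 0.72 to 1.98, and on total counts alone 12 were above 0 and Junb was at -0.03. In 12 of the 13 the stress samples all lay above the control samples, as in 1301 of all 11718 tested genes. The 13 were picked by the test, so their separation is no further support.

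The other 12 targets had at most 15 counts in any sample and were not tested. They were Il6, Il10, Il12b, Cxcl1, Cxcl2, Cxcl10, Ccl2, Vcam1, Ptgs2, Nos2, Csf2 and Plau, of which Ccl2 and Csf2 had no count at all. A change in these was not detectable at this depth.

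Markers of neutrophils and part of those of monocytes were higher as well. Of 12 neutrophil markers 11 were tested (Camp had at most 8 counts), and 8 were higher and 0 lower (edgeR), with a summed level of 195 to 383 CPM in the control samples and 598 to 877 CPM in the stress samples, and 1 of them, Mmp9, is also on the target list. Of 10 monocyte markers, 5 were higher and 1 lower, with a summed level of 369 to 525 CPM and 708 to 1205 CPM. S100a8 rose by 1.49 and F13a1 by 1.27 on the log2 scale. Of the other monocyte markers, named after their values were seen, Ace fell by 0.94 (adjusted p = 0.0453, edgeR). Treml4 (-0.35), Nr4a1 (-0.15), Cx3cr1 (0.34) and Csf1r (0.53) did not pass. All 10 platelet markers were higher (edgeR), with a summed level of 1625 to 2398 CPM and 3690 to 4273 CPM. Of 10 red cell markers 1 was called higher, but all 10 had a log2 fold change above 0, with a median of 1.05 beside 0.99 for the platelet markers. Of 8 NK cell markers 0 were called. These calls, levels and fold changes hold for the TMM scale, where the median was 1.48 for neutrophil, 0.68 for monocyte and -0.21 for NK cell markers. With total counts as the scale, these 3 medians moved to 0.72, -0.08 and -1.03. The platelet markers were then at 0.22 and the red cell markers at 0.24, beside -0.82 for all tested genes. The part of these cells in the rise of the target genes was not tested.

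**Figure D5:**
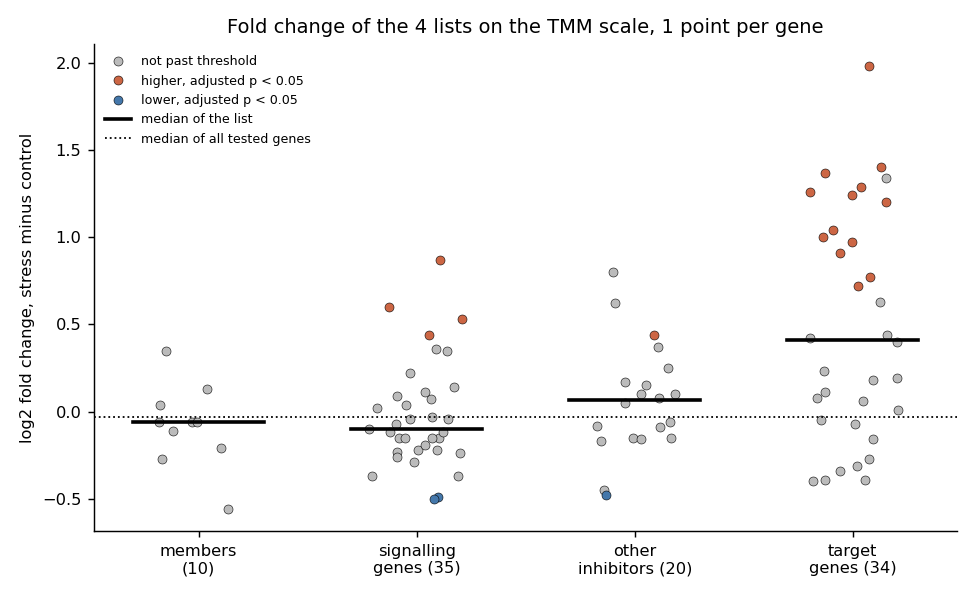
Log2 fold change on the TMM scale of each gene, 1 point per gene, for the members (10), the upstream signalling genes (35), the other inhibitors (20) and the target genes (34), with genes past an adjusted p of 0.05 in colour, black bars at the median of each list and a dotted line at the median of all tested genes. Coloured points are 0 of 10 for the members and 13 of 34 for the targets, all of the latter higher.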

How the data were processed

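Whole-blood RNA was sequenced in 4 control and 4 stress samples. The file the authors deposited holds counts of reads by gene symbol, without normalization. HISAT2, featureCounts and mm10 are named in the submitters' processing notes, and versions, annotation, strand setting and filters are not given in the sources used here. Sample groups came from the titles. Whether the samples were separate animals is taken from the study's group sizes, and p-values measure only the spread between these samples. No pair of replicates agreed within sampling noise (chi-square per degree of freedom 18.5 or more).

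The 11718 genes that reached 10 counts in 4 or more samples were tested with edgeR 4.0.16 in R 4.3.3 (TMM, robust quasi-likelihood test, Benjamini-Hochberg over all tested genes), with a threshold of 0.05. The study's own thresholds (adjusted p of 0.01 and a 2-fold change), which the study set on DESeq2 results, were applied to the edgeR fit as an alternative. Other alternatives were DESeq2 1.42.0, limma-voom (limma 3.58.1), other scalings, no filter, a fit with replicate numbers as a block, and fits without 1 sample. On simulated counts for this comparison (11563 genes), 72 of 98 genes changed by 1 and 95 of 99 changed by 2 on the log2 scale were recovered, with 16 false calls. Intervals are 95% and based on the quasi-likelihood F statistic. Exon lengths and positions came from GENCODE M21 (GRCm38, the build of mm10), and promoter sequences from RefSeq.

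The members, lists and tests were chosen with earlier results of these data known. All members are named. Of the other lists, genes past the threshold are named, up to 5 per direction by smallest p, with those left untested, and of marker lists up to 2. The values of 1 gene that this rule names are not reported here. The 3 genes with the most similar profile were to be named for each member past the threshold, which applied to 0 members.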

Additional observations from a re-analysis of the deposited data

How the results depend on the processing

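The scaling of the libraries moved the results most. On total counts alone, 7 members were lower in place of 0, the signalling list had 0 higher and 22 lower, the other inhibitors 0 and 9, the targets 0 and 10, and all tested genes 52 and 5811. The log2 fold change then turned negative for Rela (-0.68), Relb (-0.76), Bcl3 (-0.41), Myd88 (-0.23), Birc2 (-0.20), Bcl10 (-0.35), Otulin (-0.38) and Junb (-0.03). With the thresholds of the study on the edgeR fit, 0 signalling genes and 0 other inhibitors were called in either direction. There 4 targets were higher, beside 198 genes higher and 2 lower in all. The study set these thresholds on DESeq2 results, so these counts are not those of the study. At an adjusted p below 0.05, DESeq2 called 3 other inhibitors higher, 1 target lower and 655 genes lower in all. The replicate numbers did not pair the samples, since the correlation of deviations ran from -0.16 to 0.0621 and 2 of 8 samples correlated best with their own number. With the replicate block, 0 members and 0 signalling genes were lower, and 240 genes were lower in all. With Ptprc in place of Rela as the reference, 1 of 9 ratios did not overlap, and the log2 differences turned positive for Nfkb1 (0.14), Nfkb2 (0.09), Relb (0.25), Nfkbia (0.13) and Nfkbiz (0.12). With the shorter exon lengths, an alternative chosen after seeing the data, 4 of 10 members kept their place in the order of levels. Size factors from DESeq2's median ratio method, no haemoglobin genes, no filter and limma-voom each gave 0 member calls. Where it was not the number of samples or genes, the cause of these shifts was not tested.

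Leaving out 1 sample at a time kept the 11718 genes. Member calls ranged from 0 to 1 lower (1 without stress replicate 4), signalling genes from 0 to 2 lower, other inhibitors from 0 to 3 higher, and targets from 10 to 13 higher and 0 to 1 lower. All tested genes ranged from 618 (without control replicate 2) to 1421 higher and from 78 (without control replicate 2) to 718 lower. The log2 fold change of Nfkbia ran from -0.12 to 0.02 and that of Nfkbiz from -0.17 to 0.03. From 2 to 4 member ratios to Rela did not overlap, and with 4 against 3 samples the exact permutation test cannot go below p = 0.0571.

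Genes with few counts were not tested, and stress replicate 3 held the fewest counts outside the haemoglobin genes. RNA levels do not report on protein, cell numbers were not used here, and strand use in the counting is not given in the sources used here.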
